A study of Mus musculus with 42 samples.

Results

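The kidney of mice fed AZD8055 was compared with the kidney of control mice across all expressed genes, in 9 of the 42 libraries of the series: 3 of AZD8055 and 6 of control. The mice were male UM-HET3, a genetically mixed stock in which littermates differ in genotype. They had eaten the Purina 5LG6 diet, either plain (the controls, littermates of the treated mice) or with AZD8055 at 20 ppm, from 3 months of age for 1 month, and tissue was taken at 4 months. RNA was read by CEL-seq, which barcodes each sample and counts the 3' ends of polyadenylated transcripts. The libraries were chosen by a measured value: the fourth AZD8055 library was left out because adipocyte transcripts dominate it, so adipocyte genes are described below and not tested.

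AZD8055 blocks the ATP site of mTOR, the kinase at the core of 2 complexes that couple nutrients and insulin to growth. Complex 1 promotes ribosome production, translation and lipid synthesis and restrains autophagy, and complex 2 acts on AKT and related kinases. In kidney most RNA comes from the proximal tubule, whose cells reabsorb the filtrate on energy from fatty acid oxidation and also make glucose and break down amino acids. The series sets the compound among diets predicted to lengthen life, and the comparison asks which kidney transcripts differed after 1 month of it.

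In the library left out, the 12 genes of an adipocyte list summed to 59418 CPM (counts scaled to library size, with TMM factors here taken over all 30 kidney libraries), against 156 to 198 CPM in the other 3 AZD8055 libraries and 132 to 289 CPM in the controls. The brown fat uncoupler Ucp1 stood at 4140 CPM there and the fatty acid binding protein Fabp4 at 17334 CPM. Among the 9 libraries kept, Ucp1 ran from 1.47 to 9.06 CPM and Fabp4 from 44.6 to 107 CPM, with overlapping groups. The kidney label held in all 9 libraries: Slc34a1, the proximal tubule phosphate transporter, stood between 5179 and 7623 CPM and Umod, the thick ascending limb's uromodulin, between 898 and 1437 CPM. Total counts ran from 863605 to 2559118 per library (median 1644042). Gene models that resemble satellite repeats took 5.66%, 6.33% and 0.0711% of counts in AZD8055 replicates 1 to 3 and 0.0555% to 12.5% in controls. Mitochondrially encoded genes took 10.3% to 11.03% under AZD8055 and 7.09% to 15.2% in controls. By exact two-sided permutation tests on the log2 scale the test of neither share passed (p = 1 and 0.667, adjusted p = 1 for both over 3 library measures including the total, n = 3 and 6; the smallest p this design allows is 0.0238). The labels call the replicates biological and say no more of them, so p-values measure the spread between libraries. In the gene tests below that spread was estimated over 29 kidney libraries in 7 groups, other diets included.

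Of 12227 genes tested, 25 passed an adjusted p of 0.05 in edgeR's quasi-likelihood test (0.204%): 3 were higher under AZD8055 (0.0245%) and 22 lower (0.18%). At an unadjusted p under 0.05 there were 1569 genes (12.8%), 705 of them higher (5.77%) and 864 lower (7.07%). All 3 AZD8055 libraries lay above all 6 controls for 331 genes (2.71%) and below all 6 for 311 (2.54%). The log2 difference was above 0 for 49.4% of genes and its median was -0.01. The number of calls moved with single libraries. Without control 2 there were 199 calls and without control 6 there were 146, while without control 1, 3, 4 or 5 there were 13, 6, 3 and 3, and without AZD8055 replicate 1, 2 or 3 there were 4, 1 and 2.

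**Figure D1:**
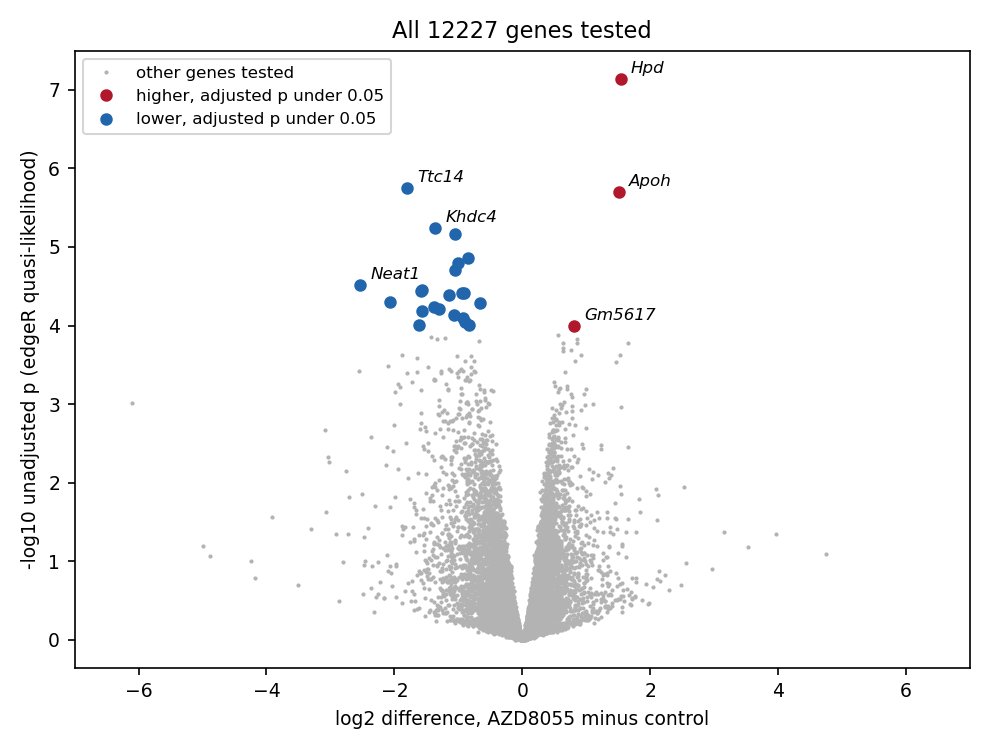
Each point is 1 of the 12227 genes tested: the log2 difference of AZD8055 minus control (horizontal) against the -log10 of the unadjusted p (vertical). Red points are the 3 genes that passed an adjusted p of 0.05 and were higher, blue points the 22 that were lower; Hpd and Apoh stand highest on the right and Ttc14 highest on the left.

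Hpd had the smallest p of all genes. It encodes 4-hydroxyphenylpyruvate dioxygenase, which takes tyrosine's keto acid to homogentisate in liver and proximal tubule. Its level was 139, 102 and 97.3 CPM in the 3 AZD8055 libraries and 29.7 to 46.0 CPM in the controls (median 39.1). Every AZD8055 library was above every control, and the means were 113 ± 22.6 CPM (SD, n = 3) and 39.0 ± 6.30 CPM (SD, n = 6), a ratio of 2.88. The log2 difference was 1.54 ± 0.22 (SE; adjusted p = 0.000886). The call held without each of the 9 libraries in turn (log2 difference 1.36 to 1.66). In the library left out Hpd stood at 39.6 CPM, within the control range. That level cannot be set against the controls as it stands, since kidney transcripts are a smaller part of that library. A list of proximal tubule genes summed to 3851 CPM there, against 10451 to 13068 CPM in controls.

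Apoh encodes beta-2-glycoprotein I, a plasma protein that binds anionic phospholipids and is made mainly by hepatocytes. It stood at 116, 166 and 107 CPM under AZD8055 and at 29.6 to 57.2 CPM in the controls (median 44.7). Again no AZD8055 library overlapped the controls, with means of 130 ± 32.0 CPM (SD, n = 3) and 45.7 ± 9.86 CPM (SD, n = 6). The log2 difference was 1.51 ± 0.26 (SE; adjusted p = 0.00819). Without AZD8055 replicate 2, the highest, it was 1.31 and the adjusted p 0.133, so the call rested on that library. The library left out had 63.2 CPM, with the same limit as for Hpd.

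Hpd lies on the minus strand at chr5:123171807-123182727 of GRCm38 and overlaps Gm26745 and, on the other strand, Psmd9. Apoh lies on the plus strand at chr11:108343354-108414396 and overlaps Gm11656 and, on the other strand, Prkca. How the authors' counting treated strand is not given in the sources used here, so reads of these overlapping genes may be mixed with theirs. The bases just before the RefSeq start of both are shown because these are the genes with the clearest difference, and those of Hps5, a lower gene, because they hold a motif. Searched on both strands was CACGTG, the E-box core that TFEB, a factor held back by mTOR complex 1, can bind; it reads the same on either strand. Capitals mark matches, and the sequences are RefSeq's (build GRCm38.p6), written 5' to 3' on the gene's strand.
Hpd, chr5:123182724-123182973, minus strand: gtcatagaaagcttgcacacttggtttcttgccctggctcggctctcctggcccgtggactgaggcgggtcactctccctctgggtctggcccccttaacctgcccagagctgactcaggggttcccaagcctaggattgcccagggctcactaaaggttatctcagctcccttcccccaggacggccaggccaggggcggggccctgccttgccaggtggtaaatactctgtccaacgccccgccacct
Apoh, chr11:108395047-108395296, plus strand: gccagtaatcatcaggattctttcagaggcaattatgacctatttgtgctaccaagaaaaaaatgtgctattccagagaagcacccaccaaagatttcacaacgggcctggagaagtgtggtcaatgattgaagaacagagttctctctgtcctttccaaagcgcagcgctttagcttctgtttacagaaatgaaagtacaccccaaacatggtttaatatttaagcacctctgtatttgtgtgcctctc
Hps5, chr7:46795882-46796131, minus strand: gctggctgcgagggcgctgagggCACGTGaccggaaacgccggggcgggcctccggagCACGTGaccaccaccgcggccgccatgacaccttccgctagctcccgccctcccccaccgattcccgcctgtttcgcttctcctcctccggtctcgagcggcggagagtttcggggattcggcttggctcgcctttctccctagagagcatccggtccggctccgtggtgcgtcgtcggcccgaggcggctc

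The motif is not in the windows of Hpd and Apoh, which says only that these letters are not in these 250 bases. Called genes on chromosome 18, where Ammecr1l lies, were left out of the search. Of the 19 other called genes matched to the promoter table, CACGTG is in the windows of 2, Hps5 and AW549877. The share was 6.02% of 32851 RefSeq promoters of that length, from which chromosome 18 was not removed. The HNF1 half-site GTTAAT, also searched, is in the window of 1 of the 19, Zfp638, against 6.43%.

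Hpd and Apoh both belong to a list of 22 hepatocyte genes, of which 14 passed the filter on low counts. No other member passed the test, and the median log2 difference of the 14 was 0.39 (all genes tested: -0.01). Of the 14, 9 had a log2 difference above 0 and 5 below. This median and the sum below include Hpd and Apoh themselves. In bulk tissue fewer cells of a type and less RNA per cell cannot be told apart. The list's summed level was 838, 1298 and 817 CPM under AZD8055 and 543 to 1095 CPM in controls. Alb, albumin, the defining hepatocyte transcript, was at 0.422, 1.38 and 6.12 CPM under AZD8055 and 0 to 11.8 CPM in controls. In AZD8055 replicates 1 and 2 it was below the level of 3 counts (1.23 and 1.93 CPM by total counts, without TMM scaling). Ttr, the thyroxine carrier transthyretin, the list's highest member, was at 426, 825 and 506 CPM against 393 to 861 CPM, with overlapping groups.

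The third gene that was higher, Gm5617, is a predicted protein-coding gene. It stood at 94.2, 93.5 and 78.3 CPM under AZD8055 and at 36.6 to 64.9 CPM in controls (median 51.5), without overlap. The log2 difference was 0.81 ± 0.18 (SE; adjusted p = 0.0493). The call held without control 2 or control 6 and was lost without any of the other 7 libraries (adjusted p up to 0.284).

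The other compounds' levels of these genes are shown as group means, since each was also set against the same 6 controls. Hpd averaged 64.2 CPM under KU0063794, 63.2 under GDC-0941, 59.7 under ascorbyl-palmitate, 50.9 under enzastaurin and 43.1 under AS-703026 (n = 4 each). Apoh averaged 57.8, 80.0, 62.8, 103 and 32.7 CPM in the same order, and under enzastaurin its range of 72.5 to 154 CPM overlapped that under AZD8055.

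**Figure D2:**
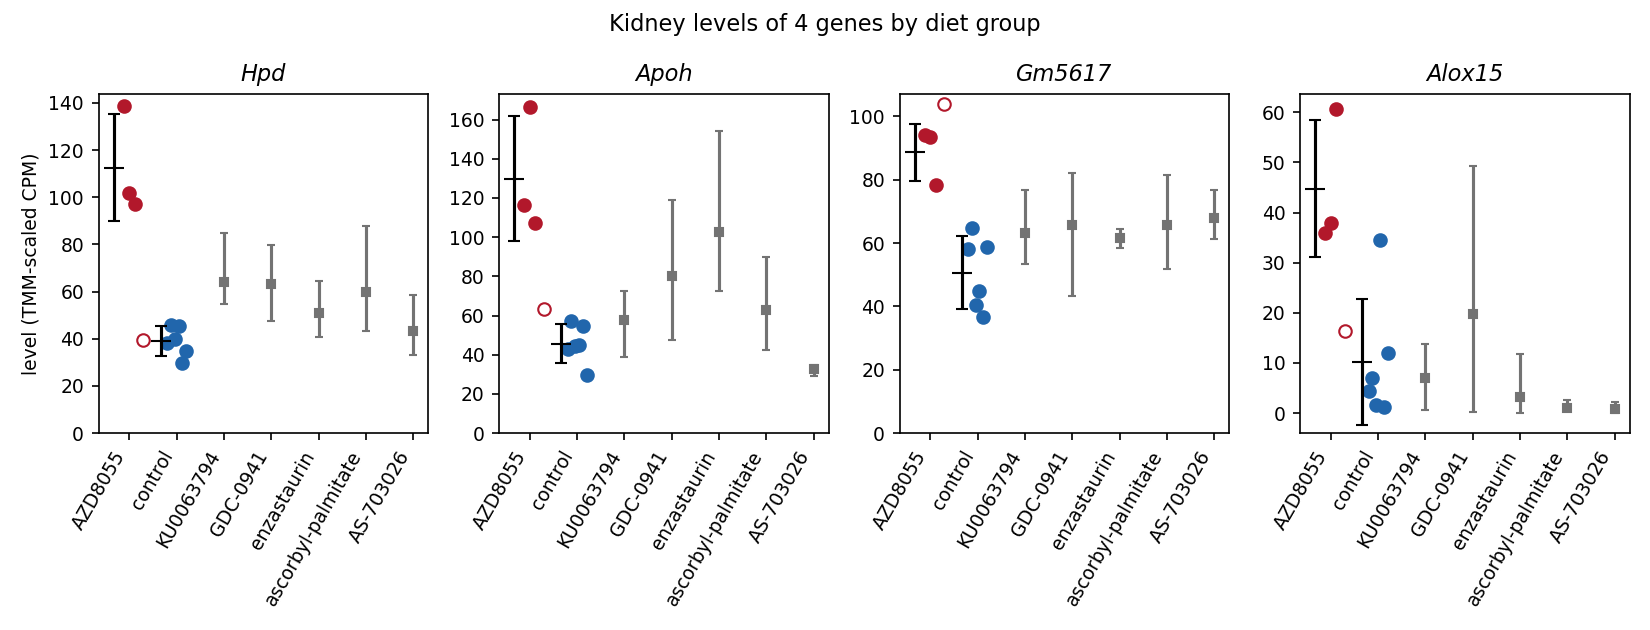
TMM-scaled CPM of Hpd, Apoh, Gm5617 and Alox15 in kidney by diet group. Filled red points are AZD8055 replicates 1 to 3, the open red point is the library left out, blue points are the 6 controls, black bars are mean ± SD, and grey squares with bars are the mean and the lowest and highest of 4 libraries of each other compound; for Hpd, Apoh and Gm5617 the filled red points lie above all controls.

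Among the 22 lower genes Neat1 had the largest difference. It is the long non-coding RNA that builds nuclear paraspeckles. It stood at 142, 157 and 129 CPM under AZD8055, and in controls 1 to 6 at 522, 204, 1393, 1252, 1318 and 293 CPM. All AZD8055 libraries were below all controls, but controls 2 and 6 were close to them and the other 4 far above. The log2 difference was -2.54 ± 0.52 (SE; adjusted p = 0.0361). The call held without control 1, 2 or 6 and was lost without any of the other 6 libraries (adjusted p up to 0.306).

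Ttc14, a tetratricopeptide repeat protein whose gene overlaps Ccdc39, had the smallest p among lower genes. It stood at 16.9, 9.63 and 12.2 CPM against 42.8, 23.02, 53.5, 61.0, 68.5 and 30.4 CPM in controls 1 to 6. The groups did not overlap, and the lowest controls were again 2 and 6. The log2 difference was -1.80 ± 0.30 (SE; adjusted p = 0.00819), and the call was kept without 7 of the 9 libraries in turn.

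Further lower genes act on pre-mRNA. Khdc4, a KH domain protein of splice site choice, was at 29.6, 44.0 and 28.8 CPM against 47.9 to 118 CPM in controls (median 97.4; log2 difference -1.37 ± 0.25 (SE), adjusted p = 0.0168). Prpf38b, a spliceosomal factor, was at 48.2, 59.8 and 53.9 CPM against 66.1 to 150 CPM (median 134; -1.14 ± 0.24, adjusted p = 0.0361). Both lay below every control. Pnisr, an arginine- and serine-rich nuclear protein, was at 72.2, 66.0 and 36.7 CPM against 68.6 to 275 CPM (median 193), overlapping control 6 (-1.57 ± 0.32, adjusted p = 0.0361). Sfpq, a paraspeckle protein that binds Neat1, was at 58.7, 59.1 and 56.9 CPM against 72.6 to 134 CPM (median 107), below all controls (-0.83 ± 0.18, adjusted p = 0.0493). Cpsf6, part of the complex that places the 3' cleavage site, was at 56.2, 48.1 and 59.4 CPM against 58.4 to 150 CPM (median 115), overlapping control 2 (-1.01 ± 0.20, adjusted p = 0.0282).

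Other lower genes had other roles. Ogt, which puts O-linked N-acetylglucosamine on nuclear and cytoplasmic proteins, was at 35.9, 37.1 and 32.4 CPM against 37.0 to 171 CPM in controls (median 117; log2 difference -1.58). Chka, choline kinase alpha, the first enzyme of phosphatidylcholine synthesis from choline, was at 36.8, 37.8 and 30.0 CPM against 52.6 to 103 CPM (median 67.3; -1.05). Tnrc6a, the GW182 protein of microRNA silencing, was at 68.9, 64.0 and 64.3 CPM against 80.3 to 174 CPM (median 134; -0.94). Chka and Tnrc6a lay below every control, and 1 Ogt value lay just above control 6. Hps5, of the BLOC-2 complex of lysosome-related organelles, was at 46.9, 44.0 and 39.2 CPM against 56.9 to 98.4 CPM (-0.85), and Ergic2, of the compartment between ER and Golgi, at 13.5, 18.6 and 20.2 CPM against 22.2 to 51.1 CPM (-1.05); neither overlapped the controls. Ccnt2, the cyclin of the elongation factor P-TEFb (-1.38), Ccnl2, a cyclin of splicing speckles (-1.07), Crebzf, a bZIP factor (-1.56), and Zfp638, an RNA-binding zinc finger protein (-0.90), also passed, as did Rsrc2 (-0.66), Ammecr1l (-0.91), AW549877 (-0.93), D630039A03Rik (-1.30), D930016D06Rik, a lincRNA (-1.61), and ENSMUSG00000089788, for which the annotation gave no symbol (-2.07).

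Apart from Ttc14, each lower gene passed in only 2 to 4 of the 9 fits that leave out 1 library: all passed without control 2 and without control 6, and without AZD8055 replicate 2 or 3 no lower gene passed. In all, 15 of the 22 lower genes had their AZD8055 libraries below all controls, against 2.54% of all genes tested. The 22 were picked as lower in these same libraries, so that count is no separate evidence. Of the 22, 19 are protein-coding. For 18 of the 22 the lowest 2 controls were controls 2 and 6. The median over the 22 genes of log2(CPM + 1) minus the control mean was -1.16, -0.92 and -1.14 in AZD8055 replicates 1 to 3. It was -0.65 and -0.51 in controls 2 and 6 and 0.05, 0.38, 0.39 and 0.51 in controls 1, 3, 4 and 5. The share of satellite-like counts in these 2 controls was 12.5% and 0.0555%, at either end of the control range. Whether what sets controls 2 and 6 apart has a part in these calls was not tested. The genes that overlap others in the annotation, with reads that may be mixed, include Ttc14, Khdc4, Chka, Hps5, Ergic2, Neat1, Tnrc6a, AW549877, Zfp638, Sfpq and Ammecr1l.

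**Figure D3:**
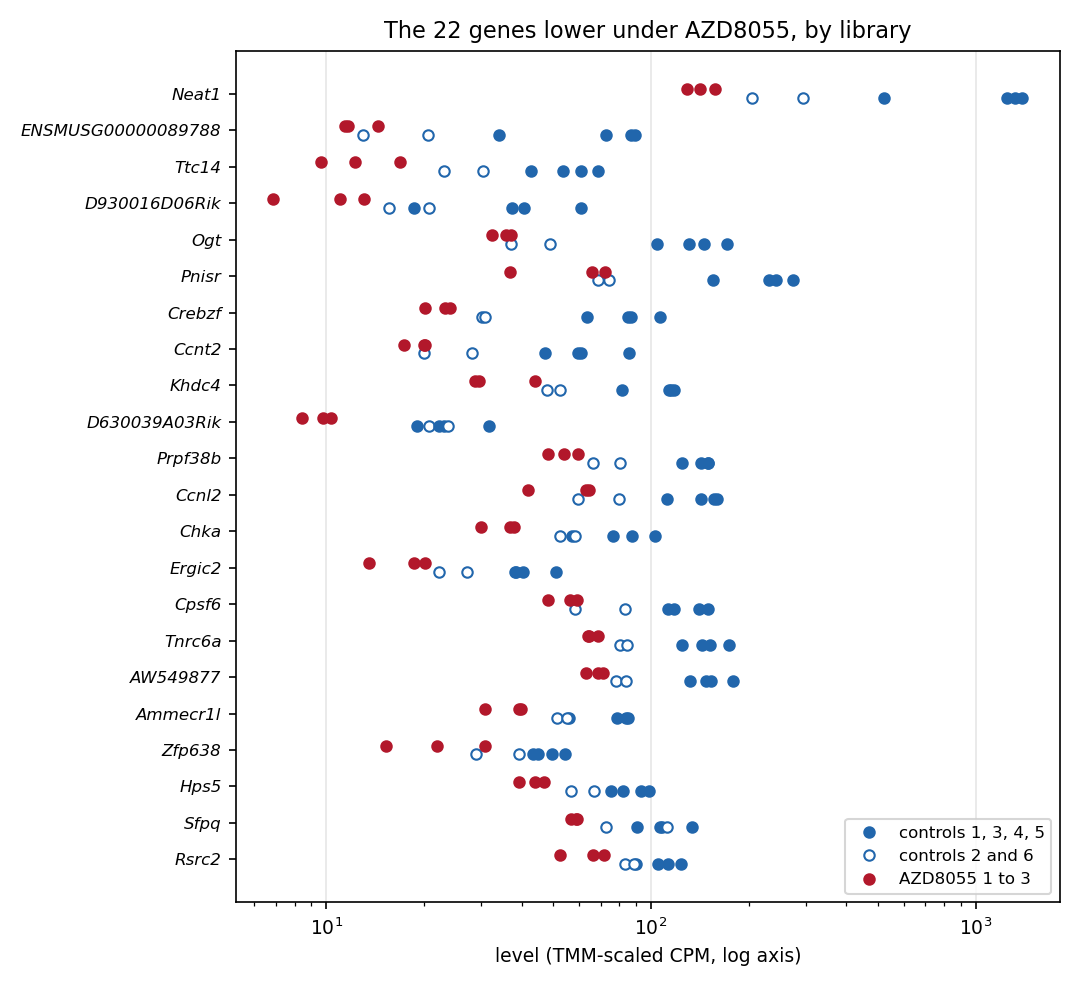
TMM-scaled CPM (log axis) of the 22 genes lower under AZD8055, 1 row per gene. Red points are AZD8055 replicates 1 to 3, filled blue points controls 1, 3, 4 and 5 and open blue points controls 2 and 6; in 18 rows the open points are the lowest 2 controls.

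Lower calls fell in 3 of the pathway lists: nuclear non-coding RNAs, splicing factors and 3' end processing. These lists were chosen with earlier results of these data known, so counts of their members are no separate evidence. Of 14 measured nuclear non-coding RNAs, 1 passed (Neat1), 11 were lower at an unadjusted p under 0.05 (7.07% of all genes were), and the median log2 difference was -1.30. Malat1, an abundant RNA of nuclear speckles, was at 548, 438 and 208 CPM against 1449, 392, 1155, 1449, 2074 and 284 CPM in controls 1 to 6, so the groups overlapped through controls 2 and 6 (-1.51 ± 0.45, adjusted p = 0.132). Snhg12, a host of small nucleolar RNAs whose gene holds 5 of them, was at 13.5, 6.88 and 5.51 CPM against 11.8 to 29.4 CPM (-1.33 ± 0.31, adjusted p = 0.06). Snhg5 was at 2.53, 1.38 and 1.84 CPM against 3.90 to 14.3 CPM and Dleu2, the host of miR-15a and miR-16-1, at 21.1, 22.01 and 16.5 CPM against 23.02 to 40.4 CPM; both were below all controls and neither passed (adjusted p = 0.102 for both). Snhg5 was near the floor: 3 counts correspond to 1.93 CPM in AZD8055 replicate 2 and 1.79 CPM in replicate 3. These floors are by total counts, without TMM scaling, so they differ a little from the scale of the levels.

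Of 47 measured genes of SR proteins, hnRNPs and their kinases, which bind pre-mRNA and set splice sites, 4 passed, all lower (Khdc4, Prpf38b, Pnisr and Sfpq). At an unadjusted p under 0.05 31 were lower and 0 higher (7.07% and 5.77% of all genes were), and the median log2 difference was -0.61. Of members that did not pass, Hnrnpa2b1 was at 243, 224 and 228 CPM against 245 to 365 CPM, Hnrnpl at 45.2, 50.2 and 47.1 CPM against 57.8 to 90.0 CPM and Luc7l at 43.1, 44.0 and 36.7 CPM against 49.1 to 93.3 CPM. Each lay below all controls, with adjusted p of 0.087, 0.087 and 0.106. Of 21 genes of 3' end processing, 1 passed (Cpsf6) and 4 were lower at an unadjusted p under 0.05 (median -0.24). Cpsf7, the partner of Cpsf6 in the same complex, was at 22.8, 30.3 and 25.1 CPM against 31.3 to 65.7 CPM (adjusted p = 0.0837).

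Summed over the list, nuclear non-coding RNAs came to 905, 803 and 487 CPM under AZD8055 and 2400, 826, 3026, 3223, 3978 and 809 CPM in controls 1 to 6. Splicing genes summed to 4089, 4029 and 3831 CPM against 6081, 4072, 6692, 7017, 7161 and 4457 CPM. In both sums controls 2 and 6 were within or next to the AZD8055 range and the other 4 controls were well above it.

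No transcript of the compound's target pathway passed. Of 40 measured genes of the mTOR pathway, 1 lay above 0 and 2 below with an unadjusted p under 0.05 (5.77% and 7.07% of all genes did). The median log2 difference was -0.01. Mtor itself was at 87.9, 77.0 and 85.1 CPM against 59.3 to 115 CPM (log2 difference 0.02 ± 0.20, SE). Rptor, the scaffold of complex 1, was at 10.98, 12.4 and 6.12 CPM against 7.30 to 13.1 CPM (-0.02 ± 0.25). The members at an unadjusted p under 0.05, named for that after their values were seen, were Rictor, the scaffold of complex 2 (-0.87, adjusted p = 0.202), Deptor, an inhibitor bound to both complexes (-0.43, adjusted p = 0.218), and Castor1, the arginine sensor (0.82, adjusted p = 0.38). Eif4ebp1, the translation repressor that mTOR phosphorylates, was at 9.29, 15.1 and 7.96 CPM against 5.49 to 11.2 CPM (adjusted p = 0.803).

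No transcript of the translation machinery passed either. Of 64 measured cytosolic ribosomal proteins, 13 were higher and 1 lower at that unadjusted p (5.77% and 7.07% of all genes), with a median of 0.18. Rpl8 was at 215, 211 and 219 CPM against 137 to 205 CPM, above all controls (adjusted p = 0.213), and Rps4x at 53.6, 50.2 and 56.9 CPM against 23.4 to 44.3 CPM (adjusted p = 0.104); processed copies of ribosomal protein genes could take some of their reads. Of 21 translation factors 6 were higher and 1 lower at that p (median 0.22), led by Eef2, the elongation factor that moves the ribosome, at 1962, 1937 and 1970 CPM against 1193 to 1700 CPM (0.48 ± 0.14, SE; adjusted p = 0.132). Ribosome biogenesis genes numbered 25, with 1 higher at that p and a median of 0.04.

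Tyrosine breakdown had Hpd as its only call among 8 measured genes, all 8 of which had a log2 difference above 0 (median 0.25). Gstz1, a later enzyme of that pathway, was at 437, 472 and 480 CPM against 353 to 431 CPM, above all controls (adjusted p = 0.493). Hgd and Fah, the enzymes on either side of it, are named as neighbours of Hpd after their values were seen, with log2 differences of 0.27 (adjusted p = 0.46) and 0.24 (adjusted p = 0.447). Of 19 genes that break down branched-chain amino acids 5 were higher at an unadjusted p under 0.05 and none lower (median 0.15). Of all genes 5.77% were higher and 7.07% lower at that p. Among the 5 was Hibch of the valine branch, at 102, 127 and 120 CPM against 54.3 to 100 CPM (adjusted p = 0.188).

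Genes of mitochondrial energy metabolism held no call. At an unadjusted p under 0.05, 5.77% of all genes were higher and 7.07% lower. Of 31 fatty acid oxidation genes 9 were higher and 1 lower at that unadjusted p, with a median of 0.32. Eci1, the enoyl-CoA isomerase for unsaturated chains, was at 138, 175 and 130 CPM against 53.5 to 122 CPM (0.76 ± 0.18, SE; adjusted p = 0.07). Etfdh, which passes electrons from acyl-CoA dehydrogenases to ubiquinone, was at 116, 113 and 132 CPM against 66.3 to 107 CPM (adjusted p = 0.149). Both lay above all controls. Pdk4, a kinase that shuts off pyruvate dehydrogenase, was the lower one, at 2.11, 4.81 and 1.22 CPM against 3.43 to 12.1 CPM (adjusted p = 0.237). Its value in AZD8055 replicate 3 is below the level of 3 counts there (1.79 CPM by total counts, without TMM scaling).

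Of 69 nuclear genes of oxidative phosphorylation 17 were higher and 1 lower at that unadjusted p (median 0.21), of 72 of the mitochondrial ribosome 18 and 1 (median 0.27), and of 23 of the tricarboxylic acid cycle 5 and 0 (median 0.19). Sdhb, the iron-sulphur subunit of complex II, was at 598, 587 and 635 CPM against 329 to 570 CPM (adjusted p = 0.159). Ndufb8 of complex I was at 511, 618 and 574 CPM against 336 to 489 CPM (adjusted p = 0.2). Mrpl10 of the mitochondrial ribosome was at 73.5, 72.2 and 83.9 CPM against 43.9 to 62.0 CPM (adjusted p = 0.116). All 3 genes lay above every control. The 10 genes that mitochondrial DNA encodes had a median of -0.20, with 1 lower at that p. The oxidative phosphorylation list summed to 37354, 39403 and 41237 CPM under AZD8055 and 32417, 37017, 29517, 30683, 28215 and 39818 CPM in controls 1 to 6, where the highest 2 controls are again 2 and 6.

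Sugar metabolism held no call. Of 12 genes of glucose production and fructose use 3 were higher at an unadjusted p under 0.05 and none lower (median 0.26). The shares of all genes were 5.77% higher and 7.07% lower. Khk, ketohexokinase, was at 665, 583 and 604 CPM against 405 to 517 CPM (adjusted p = 0.177), above all controls. Of 22 genes of glycolysis and the hypoxia response 5 were higher and 1 lower (median 0.26). The lower one was Vegfa, the endothelial growth factor, at 70.5, 65.3 and 63.7 CPM against 79.1 to 161 CPM (-0.81 ± 0.21, SE; adjusted p = 0.0837).

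Protein and organelle turnover gave no call. At an unadjusted p under 0.05, 5.77% of all genes were higher and 7.07% lower. Of 51 autophagy and lysosome genes, a set that mTOR complex 1 restrains through TFEB, 8 were higher and 1 lower at that unadjusted p (median 0.15). Map1lc3a, an LC3 protein of the autophagosome membrane, was at 177, 171 and 175 CPM against 99.96 to 165 CPM, above all controls (0.47 ± 0.13, SE; adjusted p = 0.116), and Lamp2, a lysosomal membrane protein, at 522, 548 and 573 CPM against 585 to 761 CPM, below all controls (adjusted p = 0.546). Of 37 proteasome subunits and chaperones 11 were higher and none lower (median 0.20), led by Psmd5, an assembly chaperone, at 93.4, 103 and 111 CPM against 32.6 to 76.4 CPM (0.85 ± 0.20, SE; adjusted p = 0.0606). Of 24 FoxO and insulin-responsive genes 1 was higher and 2 lower (median -0.12), near the shares of all genes. The higher one was Igfbp1, and the lower ones were Pdk4 and Cdkn1b. Cdkn1b, the cell cycle inhibitor p27, was at 71.0, 50.2 and 56.3 CPM against 77.3 to 115 CPM (-0.79 ± 0.19, SE; adjusted p = 0.071).

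Lipid and redox genes held no call. Of 17 fatty acid synthesis genes Me1, malic enzyme, was above all controls at 774, 880 and 988 CPM against 579 to 772 CPM (adjusted p = 0.164), and Acly, ATP citrate lyase, below them at 136, 122 and 143 CPM against 153 to 173 CPM (adjusted p = 0.375). Of 26 NRF2 and glutathione genes 4 were higher at an unadjusted p under 0.05, against 5.77% of all genes. The median log2 difference of the 26 was 0.05, with 16 above 0 and 10 below. Among the 4 was Gstm1, a glutathione transferase with near-identical relatives, at 1056, 1749 and 1482 CPM against 669 to 847 CPM (log2 difference 0.95 ± 0.35 (SE), adjusted p = 0.233). Gpx1, the cytosolic glutathione peroxidase, was among the 10 smallest p above the threshold, at 3728, 3454 and 4133 CPM against 1938 to 2988 CPM (0.63 ± 0.15, SE; adjusted p = 0.0606). Others of those 10 were Ttc36, a protein of kidney and liver, at 520, 539 and 546 CPM against 296 to 433 CPM (adjusted p = 0.06), and Rhot2, the mitochondrial GTPase Miro2, at 96.7, 123 and 103 CPM against 134 to 206 CPM (adjusted p = 0.0606); neither overlapped the controls.

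**Figure D4:**
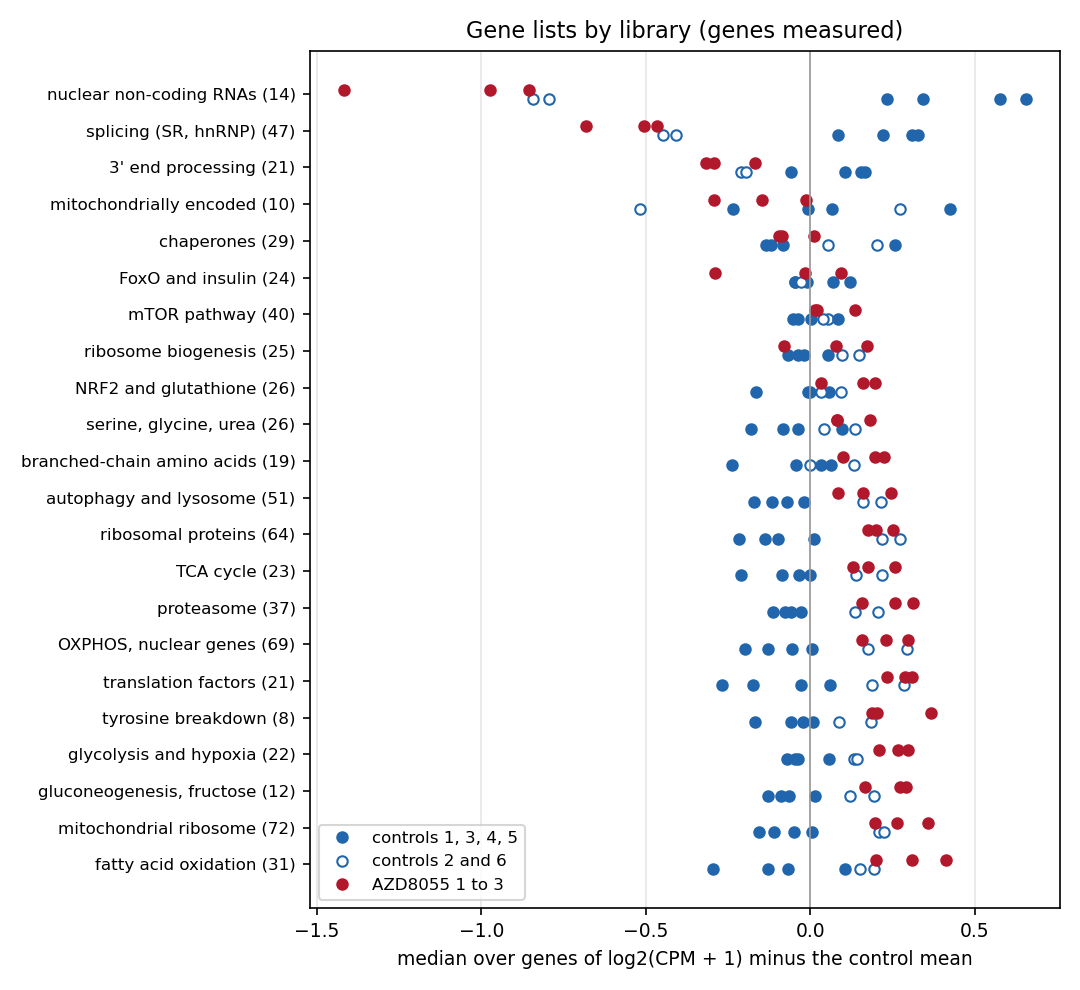
Median over the measured genes of each list (number in brackets) of log2(CPM + 1) minus the mean of the 6 controls, 1 point per library. Red points are AZD8055 replicates 1 to 3, filled blue points controls 1, 3, 4 and 5 and open blue points controls 2 and 6; for nuclear non-coding RNAs the open points lie beside the red ones (-0.84 and -0.80 in controls 2 and 6, -0.85 to -1.42 under AZD8055).

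In the medians by library, controls 2 and 6 stood beside AZD8055 in some lists and not in others. For splicing genes they were -0.45 and -0.41, against -0.47, -0.51 and -0.68 under AZD8055 and 0.08 to 0.33 in the other 4 controls. For ribosomal proteins they were 0.22 and 0.27, against 0.17, 0.25 and 0.20 under AZD8055 and -0.22 to 0.01 in the others. For fatty acid oxidation they were 0.15 and 0.20, just below the 0.20, 0.41 and 0.31 of AZD8055. For hepatocyte genes control 2 was at 0.62, within the 0.33 to 0.64 of AZD8055, and control 6 at -0.15. For Hpd and Apoh control 2 was the highest control, at 46.0 and 57.2 CPM, and control 6 was at 34.7 and 29.6 CPM, the latter the lowest control for Apoh. The part of these 2 controls in the list results was not tested.

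Gene length is given as a description, with no test. Protein-coding genes lower at an unadjusted p under 0.05 spanned a median of 41.2 kb of genome (800 genes) and those higher 12.2 kb (676 genes), against 27.4 kb for all 11439 protein-coding genes tested. The 19 protein-coding genes called lower spanned a median of 27.1 kb, close to all genes. An annotated transcript with a retained intron belonged to 14 of those 19 (73.7%) and to 60% of all. These are properties of the genes and of the annotation, not of the reads, which were not examined.

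Markers of the nephron's segments showed no call. Of 13 measured distal tubule genes 2 were lower at an unadjusted p under 0.05, against 7.07% of all genes. Slc12a3, the thiazide-sensitive sodium chloride cotransporter, was below all controls at 78.2, 37.8 and 69.2 CPM against 86.2 to 147 CPM (log2 difference -0.86 ± 0.31 (SE), adjusted p = 0.218). The list as a whole summed to 6541, 3100 and 5286 CPM against 3939 to 6219 CPM. The proximal tubule list of segments 1 and 2 summed to 11052 to 13001 CPM against 10451 to 13068 CPM. That of segment 3 summed to 2879 to 3293 CPM against 2423 to 4490 CPM. At that unadjusted p 2 of 19 genes of the former list and 1 of 10 of the latter were lower, none higher. Of 11 thick ascending limb genes 1 was higher, and of 7 inner medulla genes 2 were lower. The lists of principal cells (10 genes) and intercalated cells (12 genes) had no such member. Of 12 male kidney genes driven by androgen, 6 had a log2 difference above 0 and 6 below. At an unadjusted p under 0.05, 2 were higher and 2 lower, against 5.77% and 7.07% of all genes. Kap, the kidney androgen-regulated protein, stood at 43302 to 46667 CPM against 30736 to 45250 CPM. The higher 2 were Inmt, a methyltransferase, at 1594, 1595 and 1610 CPM against 915 to 1293 CPM (0.58 ± 0.15, SE; adjusted p = 0.087), and Cyp2e1. Cyp2e1 was at 3083, 2862 and 3619 CPM against 1621 to 2770 CPM (adjusted p = 0.255). Both lay above all controls. The leukocyte list summed to 356 to 512 CPM under AZD8055 and 217 to 788 CPM in controls, and globin genes to 4587 to 8290 CPM and 958 to 8670 CPM.

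AZD8055 was also set against the other diets, a contrast that uses no control level. The control libraries stayed in the fit, where they enter the scaling, the filter and the estimate of spread. Doses differed: 10 ppm for KU0063794, another inhibitor of the mTOR kinase, 50 ppm for GDC-0941, a PI3K inhibitor, 75 ppm for enzastaurin, a protein kinase C inhibitor, 30 ppm for AS-703026, a MEK inhibitor, and 6.3 ppm for ascorbyl-palmitate, a lipid-soluble vitamin C ester, with 4 libraries each. Against the mean of the 5, 2 genes passed (0.0164% of 12227; 4.38% at an unadjusted p under 0.05), both higher under AZD8055. Hpd was one, with a log2 difference of 1.02 ± 0.18 (SE; adjusted p = 0.0165): its lowest AZD8055 library, at 97.3 CPM, was above the highest of the 20 others, 87.8 CPM. Apoh had a log2 difference of 1.04 ± 0.21 (SE) and did not pass (adjusted p = 0.101).

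The other was Alox15, the lipoxygenase that oxygenates arachidonic and linoleic acid, found mainly in macrophages and eosinophils. It stood at 35.9, 37.8 and 60.6 CPM under AZD8055, and group means were 19.8 CPM under GDC-0941 (0.279 to 49.2), 6.93 under KU0063794, 3.17 under enzastaurin, 1.03 under ascorbyl-palmitate and 0.795 under AS-703026. The log2 difference from their mean was 3.97 ± 0.68 (SE; adjusted p = 0.0165). Against the controls it did not pass (2.12 ± 0.81, adjusted p = 0.249): all 3 libraries lay above every control, 5 of which were between 1.14 and 12.1 CPM, with control 4 at 34.5 CPM. The leukocyte list, which was not tested as a source, has the levels given above. Without any 1 of the 3 AZD8055 libraries neither Hpd nor Alox15 passed against the other compounds (adjusted p of 0.0654 to 0.406 and 0.0654 to 0.209). With the control libraries left out of the fit, Alox15 passed and Hpd did not.

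None of the 22 genes lower against control passed against the other compounds, where their log2 differences ran from -0.87 to -0.08 and 6 had an unadjusted p under 0.05. Neat1, for example, averaged 143 CPM under AZD8055, 209 under KU0063794, 228 under GDC-0941, 240 under ascorbyl-palmitate, 296 under AS-703026 and 349 under enzastaurin, and 831 in the controls. Khdc4 averaged 34.1 CPM under AZD8055, 37.1 to 45.7 CPM under the 5 others and 88.0 CPM in the controls. The controls are shared by all of these comparisons.

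Against KU0063794 at its lower dose, 0 of 12227 genes passed in edgeR (0.0%; 422 genes, 3.45%, at an unadjusted p under 0.05); DESeq2 called 1 gene and limma voom 0. Side by side, Hpd was at 97.3 to 139 CPM under AZD8055 and 54.6 to 84.8 CPM under KU0063794 (log2 difference 0.79 ± 0.23, SE), and Apoh at 107 to 166 CPM and 38.6 to 72.3 CPM (1.14 ± 0.28, SE). Neither overlapped between the 2 compounds and neither passed (adjusted p = 1 for both). The comparison does not show that the compounds act alike, since the doses differ and 3 libraries stand against 4.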

How the data were processed

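The authors deposited raw counts per gene for 42 CEL-seq libraries (43629 genes, 0 columns unused). Genome build mm10, STAR 2.5.2b, featureCounts 1.5, Trimmomatic 0.32 and bcl2fastq 1.8.4 are listed, per the submitters' processing notes. The sources used here give no strand setting, annotation release or handling of molecular identifiers. GENCODE M21 gave symbols and positions for 42548 genes. The 29 kidney libraries without AZD8055 replicate 4 entered 1 fit of 7 groups in edgeR 4.0.16 (R 4.3.3): TMM scaling, filterByExpr (12227 genes left), quasi-likelihood tests, Benjamini-Hochberg adjustment, threshold 0.05; the biological coefficient of variation was 0.255. Levels are TMM-scaled CPM; the level of the library left out was scaled with all 30. Intervals and floors of 3 counts cover counting error only. Alternatives used DESeq2 1.42.0 and limma 3.58.1; the fit was tested on simulated data. No 2 libraries were duplicates by a chi-square per gene (lowest 4.10).

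The members and the 51 gene lists (1163 of 1171 symbols matched) were chosen with earlier results of these data known. Genes named are a subset, picked after their values were seen, of: all calls; per list up to 6 members outside the control range and the 3 highest; the next 10 by p; calls against other compounds; and genes of an earlier report. Named outside it are Rictor, Deptor, Castor1, Mtor, Rptor, Hgd, Fah and Alb. Igfbp1 was named as the higher member of its list after its value was seen. Some results are not reported here.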

Additional observations from a re-analysis of the deposited data

Results flagged for a closer look

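Hpd and Alox15 were higher under AZD8055 than under the mean of the other 5 compounds by a test of that difference, with log2 differences of 1.02 and 3.97. The AZD8055 library left out had a summed adipocyte level of 59418 CPM, where no control exceeded 289 CPM. In 5 of 111 genes examined, 1 control lay far from the other 5: D630039A03Rik in control 3 (31.6 CPM), Gstm2 in control 2 (93.2 CPM), Alox15 in control 4 (34.5 CPM), Dusp6, an ERK phosphatase, in control 5 (115 CPM), and Alb in control 2 (11.8 CPM). The flag was Dixon's ratio of gap to range, with a critical value set so that chance flags about 1 group in 20 of normally spread values. That rate was not measured in these data.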

How the results depend on the processing

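Against 25 calls (3 higher, 22 lower), keeping AZD8055 replicate 4 in gave 640 (442 and 198), DESeq2 159 (51 and 108), no filter on low counts 196 (52 and 144), limma voom with sample weights 225 (112 and 113), the satellite-like share as a covariate 38 (9 higher), the 2 groups fitted alone 2 (0 lower), and leaving out libraries with a high satellite-like share 0 (0 and 0; 1599 genes at an unadjusted p under 0.05), a setting that keeps 1 AZD8055 library, whose spread is taken from the other groups. Leaving out each library in turn gave 1 to 199 calls, 1 to 61 higher and 0 to 138 lower. Of the 25 genes, DESeq2, limma voom and the covariate also called 25, no filter and replicate 4 kept in 24, RLE scaling 22 and the 2 groups alone 2 (Hpd and Apoh). With replicate 4 kept in, Pdk4 and Acly were called higher (log2 difference 5.16 and 3.33) where the 3 libraries alone have them lower. Replicate numbers do not pair the libraries (correlations of same-numbered libraries -0.04, 0.18 and -0.22, and replicates 1 and 3 correlate best with another number); with the replicate block 22 genes passed, 18 of them among the 25. Hpd passed in 17 of 18 alternatives, failing with high satellite-like libraries left out (1.41, adjusted p = 0.19), and Apoh in 16.

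Against KU0063794, keeping replicate 4 in gave 74 calls, no filter 80, DESeq2 1 and the 2 groups alone 1; leaving out each library in turn gave 0. Against the other 5 compounds the 2 calls became 427 with replicate 4 kept in, 95 with no filter, 1 with these groups alone (Alox15), 0 without libraries of high satellite-like share and 0 without any 1 AZD8055 library. DESeq2 and limma voom each gave 3, Hpd among them; Alox15 had an adjusted p of 0.0521 in limma voom and none in DESeq2. Apoh passed in 1 of 16 alternatives against KU0063794 and in 4 of 12 against the other 5 compounds. For Hpd these counts were 0 of 16 and 7 of 12. Except as stated, the cause of these changes was not tested.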
